A study of Mus musculus with 6 samples.

Results

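The genes described here are 10 mouse receptor genes of the immunoglobulin superfamily, chosen by name: the Fc gamma receptor genes Fcgr1, Fcgr2b, Fcgr3 and Fcgr4, the paired immunoglobulin-like receptor (PIR) genes Pirb, Pira2 and Lilra6, the related Lilrb4a and Lilrb4b, and Milr1. They are 10 of the 35297 genes to which the deposited transcripts could be assigned. RNA was taken on day 20 from BMMCs (bone marrow-derived mast cells), which are mast cells grown from bone marrow in culture, and compared between 3 BALB/c libraries (S9, S10 and S11) and 3 C57BL/6 libraries (S12, S13 and S14). The bone marrow came from naive wild type mice of both strains, and all cultures were given IL-3, IL-9, TGF-β1 and stem cell factor. No stimulus was applied to the cells that were sequenced as far as the labels say, and the age and sex of the mice that gave the bone marrow are not given in the sources used here. The comparison asks how the receptors of mast cells differ at baseline between these strains.

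Each library held between 28273365 and 37100869 reads on genes. Levels within a gene are given as CPM (counts scaled to library size, after TMM correction), and levels of different genes are compared as TPM (Salmon's measure of transcript abundance, which also divides by transcript length). No library repeated another, since counts of replicates were further apart than sampling allows (chi-square divided by its degrees of freedom from 6.60 to 13.6). The strains lay apart on the first principal component, with 90.6% of the variance. The strains were compared with edgeR's quasi-likelihood test over the 12461 genes that passed its filter on low counts, with Benjamini-Hochberg adjustment over all of them. A gene passed the test when its adjusted p was under 0.05, and it was past both thresholds when its fold change was above 2 as well. The study calls the libraries biological replicates, and nothing in the labels says that they came from separate mice, so p-values measure the spread between these libraries. In RNA of whole cultures, fewer cells that express a gene and less RNA per cell cannot be told apart.

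Fc gamma receptors bind the constant part of IgG. Mouse mast cells are known for a pair of low-affinity receptors of this kind, the activating FcγRIII encoded by Fcgr3 and the inhibitory FcγRIIB encoded by Fcgr2b, while FcγRI (Fcgr1) and FcγRIV (Fcgr4) are known from monocytes, macrophages and, for FcγRIV, neutrophils. The activating receptors signal through the Fc receptor gamma chain, which carries an activating tyrosine motif and is shared with the IgE receptor. The inhibitory ones carry an immunoreceptor tyrosine-based inhibitory motif (ITIM) in their own cytoplasmic tail, which when phosphorylated recruits the phosphatases SHIP-1, SHP-1 or SHP-2. PIR-B (Pirb), gp49B1 (Lilrb4a) and Allergin-1 (Milr1) are inhibitory receptors of mast cells, and the PIR-A proteins (Pira genes and Lilra6) are activating partners of PIR-B with nearly the same extracellular part.

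The ITIM was searched for in the coding sequences of the GENCODE annotation of GRCm39 as 6 codons with a tyrosine at the third, serine, isoleucine, valine or leucine at the first, and isoleucine, valine or leucine at the last. The matches near the end of the coding sequences of Fcgr2b, Lilrb4a and Pirb are shown because these receptors are known to signal through such motifs. Capitals mark the codon of the tyrosine, whose number is counted from the start codon.

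Fcgr2b, tyrosine codon 272 of 293: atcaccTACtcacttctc

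Lilrb4a, tyrosine codon 300 of 335: attgtcTACgcccaggta

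Lilrb4a, tyrosine codon 322 of 335: gtaaccTATgcccagttg

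Pirb, tyrosine codon 713 of 841: agcctaTATgcttcagtg

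Pirb, tyrosine codon 794 of 841: gtgaccTATgcccagctg

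Pirb, tyrosine codon 824 of 841: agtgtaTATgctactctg

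Lilrb4a had a further match at codon 10 and Pirb at codon 109, both far from the end. The coding sequences of Fcgr3, Pira2, Lilra6 and Milr1 held no match, which says only that this pattern is not in the coding sequence searched, and that of Lilrb4b held 1, at codon 10. That of Fcgr1 held matches at codons 143, 305 and 319 of 404, and that of Fcgr4 at codon 221 of 249. Such a match is a description and not a site, since 48.3% of 22263 mouse coding sequences held at least 1.

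Several of these genes are near copies of each other, which limits how reads of 100 bases can be assigned. The coding sequences of Fcgr2b and Fcgr3 were identical at 84.8% of aligned bases, those of Lilrb4a and Lilrb4b at 96.0%, those of Pirb and Pira2 at 95.4%, and those of Pirb and Lilra6 at 94.5%. Long identical stretches are shown because a read pair that falls inside one fits both genes, and Salmon then splits it by estimate. The stretch given for the PIR genes, of 241 bases, is the same in Pirb, Pira2 and Lilra6, and the longest one that Pirb shares with Pira2 is 477 bases.

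Fcgr2b and Fcgr3, 129 bases: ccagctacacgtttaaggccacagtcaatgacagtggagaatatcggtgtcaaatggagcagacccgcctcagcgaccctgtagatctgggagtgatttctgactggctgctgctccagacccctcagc

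Lilrb4a and Lilrb4b, 126 bases: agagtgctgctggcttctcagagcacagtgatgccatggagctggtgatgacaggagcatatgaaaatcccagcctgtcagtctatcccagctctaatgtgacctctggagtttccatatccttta

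Pirb, Pira2 and Lilra6, 241 bases: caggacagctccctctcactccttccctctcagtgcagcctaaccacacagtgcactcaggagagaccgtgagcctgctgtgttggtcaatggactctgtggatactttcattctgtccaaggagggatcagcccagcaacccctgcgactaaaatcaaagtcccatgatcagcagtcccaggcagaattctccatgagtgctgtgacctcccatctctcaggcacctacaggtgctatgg

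Of all words of 31 bases in a gene's transcripts, 91.5% for Pira2, 55.1% for Lilrb4a, 49.8% for Lilra6, 44.8% for Pirb and 37.2% for Lilrb4b also occurred in another gene. The share was 10.3% for Fcgr3, 6.17% for Milr1, 5.67% for Fcgr2b, 1.25% for Fcgr4 and 0% for Fcgr1. Few words of the Fc gamma receptor genes and of Milr1 were thus shared with another gene in this annotation, and most words of Pira2 were.

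Lilrb4a was the most abundant of the 10 genes in both strains, followed in TPM by Lilrb4b, Fcgr3 and Milr1. In BALB/c the mean TPM was 459 for Lilrb4a, 289 for Lilrb4b, 246 for Fcgr3, 115 for Milr1, 101 for Pirb, 66.1 for Fcgr2b, 5.25 for Lilra6, 0.934 for Pira2 and 0.163 for Fcgr1. In C57BL/6 it was 642 for Lilrb4a, 334 for Lilrb4b, 170.0 for Fcgr3, 87.8 for Milr1, 69.2 for Fcgr2b, 43.0 for Pirb, 0.783 for Lilra6, 0.243 for Pira2 and 0.133 for Fcgr1. Pirb and Fcgr2b thus exchanged places between the strains. Neighbours in these orders did not overlap between their libraries, except Pira2 and Fcgr1 in C57BL/6. Fcgr4 was last in both, at 0 reads in 5 libraries.

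**Figure D1:**
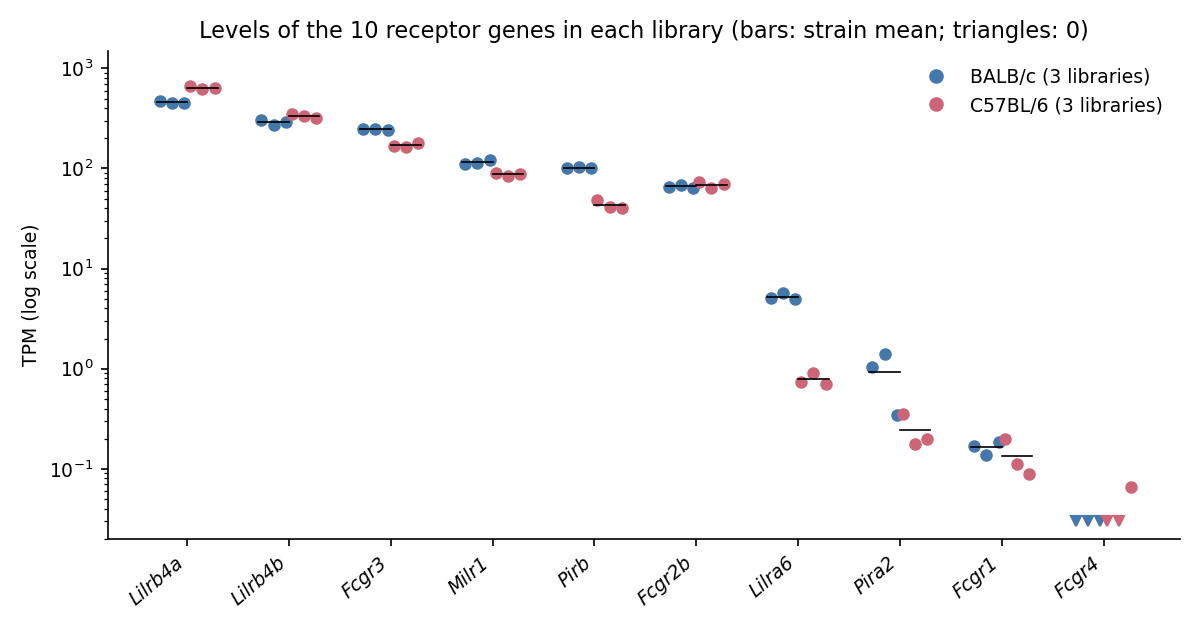
TPM on a log scale of the 10 receptor genes in each of 3 BALB/c (blue) and 3 C57BL/6 (red) libraries, with a bar at the mean of each strain and triangles at the base for libraries at 0. Lilrb4a lies highest in both strains, and the gap between the strains is widest for Lilra6, at means of 5.25 and 0.783 TPM.

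Of the 10 genes, 8 were tested and 2, Fcgr1 and Fcgr4, had too few reads. All 8 differed between the strains at an adjusted p under 0.05, where 52.9% of all genes tested did. Of them 5 were lower in C57BL/6, beside 25.9% of all genes, and 3 were higher, beside 27% of all genes. Past both thresholds were 3 of the 8, Pirb, Pira2 and Lilra6, all lower in C57BL/6, where 5.54% of all genes tested were lower past both, 7.73% were higher past both and 13.3% differed in either direction. The CPM values of the strains did not overlap for 7 of the 8, where 61.9% of all genes did not overlap. The median log2 fold change of the 8 genes was -0.28, beside -0.01 over all genes tested, and the median absolute log2 fold change over all genes was 0.24. The genes past both thresholds were thus the PIR genes, and the changes of the Fc gamma receptors, Lilrb4a, Lilrb4b and Milr1 were below 2-fold.

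**Figure D2:**
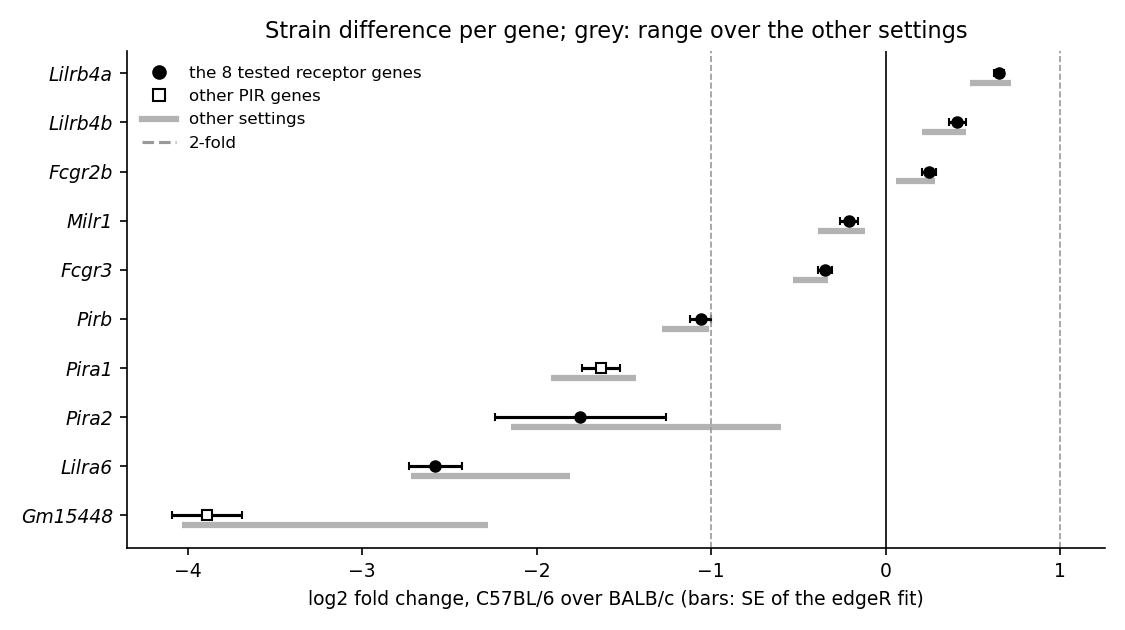
Log2 fold change (C57BL/6 over BALB/c) with the SE of the edgeR fit for the 8 tested receptor genes (circles) and for the other PIR genes Pira1 and Gm15448 (squares), over grey bars that span the other settings, with summed near copies left out. Gm14548, with nearly no reads in C57BL/6, is not drawn. The grey bars of Lilrb4a, Lilrb4b, Fcgr2b, Milr1, Fcgr3, Pirb and Lilra6 keep to 1 side of 0, and that of Fcgr2b reaches from 0.28 down to 0.06.

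Fcgr3, the activating receptor for IgG, was lower in C57BL/6 BMMCs. The gene (ENSMUSG00000059498) lies on the minus strand at chr1:170878738-170893549 in GRCm39. It had 203, 204 and 203 CPM in S9, S10 and S11, against 155, 156 and 167 CPM in S12, S13 and S14. Every C57BL/6 library was below every BALB/c library, and the BALB/c libraries were within 1 CPM of each other (203 ± 0.479, SD, n = 3). The log2 fold change was -0.35 (SE 0.04, adjusted p = 9.51e-05), which is a 1.28-fold lower level. On the TPM scale the means were 246 ± 3.93 and 170.0 ± 8.55 (SD, n = 3), 1.45-fold apart.

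Fcgr2b, the inhibitory receptor for IgG, moved the other way on the CPM scale, by less. It lies on the minus strand at chr1:170786186-170804177 (ENSMUSG00000026656). It had 60.3, 63.5 and 61.1 CPM in the BALB/c libraries, against 76.1, 70.3 and 73.4 CPM in the C57BL/6 libraries, without overlap, and its log2 fold change was 0.25 (SE 0.04, adjusted p = 0.00106). In TPM the strains overlapped, with 65.5, 68.3 and 64.4 in BALB/c, against 73.3, 64.6 and 69.6 in C57BL/6. The call was lost on plain library sizes (log2 fold change 0.11, adjusted p = 0.0775) and with limma on log2(TPM + 1) (0.06, adjusted p = 0.312), both of which move the median of all genes by -0.14. When reads of Fcgr2b and Fcgr3 were summed, the sum had, against BALB/c, a log2 fold change of -0.19 (SE 0.04, adjusted p = 0.00246). Most of the summed reads were of Fcgr3.

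The ratio of Fcgr3 to Fcgr2b does not depend on how libraries are scaled. It was 3.81, 3.61 and 3.75 in S9, S10 and S11, against 2.29, 2.52 and 2.58 in S12, S13 and S14, as TPM of Fcgr3 over TPM of Fcgr2b. The activating receptor thus exceeded the inhibitory one in all 6 libraries, by less in C57BL/6 (2.46 ± 0.149, SD, n = 3) than in BALB/c (3.72 ± 0.101, SD, n = 3). The log2 difference of the ratio was -0.60, with a two-sided exact permutation p of 0.1, which is the smallest that 3 libraries against 3 can give. Of the activating and inhibitory genes 3 ratios were compared in all, and each p stayed at 0.1 when adjusted over them (Benjamini-Hochberg). The log2 difference for Fcgr3 and Fcgr2b stayed between -0.63 and -0.55 whichever library was left out.

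Fcgr2b is known for splice forms with and without a cytoplasmic insertion, of which the form with the insertion is known from B cells and the form without it from myeloid cells. The deposited tables list a transcript of 1556 bases and one of 1415 bases. They differ by 141 bases, the length of an in-frame exon of 47 codons at chr1:170790894-170791034 (GRCm39, minus strand) that GENCODE places inside the coding sequence in 3 of 13 Fcgr2b transcripts. The exon is shown because its length is the difference between these transcripts.

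Fcgr2b, alternative exon, minus strand: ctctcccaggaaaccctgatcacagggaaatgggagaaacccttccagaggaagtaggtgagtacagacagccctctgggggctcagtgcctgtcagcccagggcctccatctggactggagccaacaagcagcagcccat

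The 1556-base transcript took 70.0%, 66.5% and 68.9% of Fcgr2b TPM in the BALB/c libraries, against 70.6%, 73.8% and 71.6% in the C57BL/6 libraries. The longer form was thus the larger part of Fcgr2b in each library, with means of 68.5% ± 1.78 and 72.0% ± 1.60 (SD, n = 3) that did not overlap between the strains (two-sided exact permutation p = 0.1). In an edgeR test over 31918 transcripts, the longer form was higher in C57BL/6 (log2 fold change 0.30, SE 0.03, adjusted p = 0.00442) and the shorter one had a log2 fold change of 0.05 (SE 0.11, adjusted p = 0.884).

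Fcgr3 also differed in the makeup of its transcripts. Its 1341-base transcript took 19.9%, 19.3% and 24.2% of Fcgr3 TPM in BALB/c, against 14%, 10.6% and 14.1% in C57BL/6, and the rest lay nearly all on the 1353-base transcript. The shorter one had, against BALB/c, a log2 fold change of -1.08 (SE 0.17, adjusted p = 0.0133) and the longer one had -0.23 (SE 0.04, adjusted p = 0.0252). The call of the shorter one was lost without S12, and that of the longer one without S9, S10, S12 or S13.

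Fcgr1 and Fcgr4, the receptors known from macrophages, were close to absent from these mast cells. For Fcgr1 (chr3:96190225-96201338, minus strand) S9, S10 and S11 held 9, 7 and 12 reads, against 12, 6 and 6 in S12, S13 and S14, which overlap. Fcgr4 (chr1:170846466-170857330, plus strand), which lies between Fcgr2b and Fcgr3, had 0 reads in S9 to S13 and 2 reads in S14. A count of 0 allows up to 3 reads in a library by counting error. No difference between the strains was detectable at this depth for either gene.

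Pirb, the inhibitory receptor of the PIR family and a receptor for MHC class I molecules, was 2.09-fold lower in C57BL/6 BMMCs. It lies on the minus strand at chr7:3714408-3723416 (ENSMUSG00000058818). It had 180.0, 184 and 183 CPM in S9, S10 and S11, against 95.4, 85.4 and 81.2 CPM in S12, S13 and S14. The strains were far apart beside the spread of their libraries (182 ± 2.18 and 87.3 ± 7.31 CPM, SD, n = 3), with a log2 fold change of -1.06 (SE 0.06, adjusted p = 7.62e-07). The change is close to the 2-fold threshold and was past it under all 19 alternatives run on single genes, with log2 fold changes from -1.28 to -1.01. In TPM the means were 101 and 43.0.

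Most Pirb reads lay on the 2728-base transcript, which took 97.8%, 98.6% and 98.7% of Pirb TPM in BALB/c, against 83.0%, 81.2% and 80.9% in C57BL/6. This transcript alone had, against BALB/c, a log2 fold change of -1.35 (SE 0.07, adjusted p = 0.000535). The remainder in C57BL/6 was mainly on a predicted transcript of 2670 bases, with 15.7%, 12.9% and 11.1% beside at most 2.15% in a BALB/c library. That transcript varied too much for a call (adjusted p = 0.385).

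Lilra6, a gene of the activating PIR-A group, showed the largest fold change of the 10 genes. It lies on the minus strand at chr7:3911275-3918531 (ENSMUSG00000030427). It had 7.44, 8.69 and 7.45 CPM in the BALB/c libraries, against 1.19, 1.59 and 1.19 CPM in the C57BL/6 libraries. The log2 fold change was -2.58 (SE 0.15, adjusted p = 1.13e-06), 5.98-fold lower in C57BL/6, and on the log2(TPM + 1) scale, which understates changes of low genes, it was -1.81. Its reads lay mostly on a 2281-base transcript that RefSeq lists as non-coding, with 237, 185 and 280 estimated reads in BALB/c, against 37.2, 42.6 and 40.8 in C57BL/6. The coding transcript of 2424 bases had 74.4 estimated reads in S10 and 0 in the other 5 libraries, so little of this RNA was assigned to a coding form.

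Pira2, a further PIR-A gene, was rare in both strains. It lies on the minus strand at chr7:3839811-3848079 (ENSMUSG00000089942) and had 77, 97 and 31 reads in S9, S10 and S11, against 29, 13 and 18 reads in S12, S13 and S14. S11 was close to the C57BL/6 libraries, and in CPM the strains overlapped (0.825 in S11 and 0.908 in S12). The log2 fold change was -1.75 (SE 0.49, adjusted p = 0.0150). The call was lost without S10 (-1.33, adjusted p = 0.0559), without S13 (-1.60, adjusted p = 0.0547), without S14 (-1.60, adjusted p = 0.0552) and when unmatched transcripts were kept as features (-1.78, adjusted p = 0.0555), and on log2(TPM + 1) the change was -0.60. The reads changed between transcripts of nearly the same length from library to library, so Pira2 has the least certain value of the 8 tested genes.

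The other PIR genes that could be matched were lower in C57BL/6 as well. Of 12 further PIR and LILR genes on the list, 4 were matched and 3 were tested. All 3 were lower past both thresholds, where 5.54% of all genes were, a result known when the list was made. The count was 2 with 10 counts in every library as the filter, which Gm14548 did not pass. The RefSeq start window of Gm14548 lies at the start of Pira12 in GRCm39, so these names may be 1 gene, counted both as matched and as not matched. Gm14548 was read 1373, 1089 and 1407 times in the BALB/c libraries, against 0, 0 and 3 in the C57BL/6 libraries (adjusted p = 7.94e-09). Gm15448 was lower, with a log2 fold change of -3.89 (SE 0.20, adjusted p = 5.08e-07), from 237, 181 and 204 reads to 14, 10 and 16. Pira1 was lower with a log2 fold change of -1.63 (SE 0.11, adjusted p = 3.08e-06), and Lilra5 had 0 reads in each library.

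Pira1 reads lay on different transcripts in the strains. In BALB/c its coding transcript of 3209 bases held 488, 491 and 574 estimated reads, and in C57BL/6 it held 0 in each library. In C57BL/6 the reads were on a 3494-base transcript that RefSeq lists as non-coding, with 220, 157 and 177 estimated reads, beside 7.9, 19.6 and 0 in BALB/c. The reference is the genome of C57BL/6J. Where BALB/c alleles differ from it, reads may be assigned to another gene of the family, and the part of this in the values of single PIR genes was not tested.

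Sums of reads over the matched PIR genes do not depend on how reads are split among the genes summed, and PIR genes without a match, other than Pira12 if it is Gm14548, are not in them. The reads of Pira1, Pira2, Lilra6, Gm14548 and Gm15448 together were lower in C57BL/6, with a log2 fold change of -3.15 (SE 0.09, adjusted p = 1.38e-08). With Pirb added, the sum was lower by -1.42 (SE 0.06, adjusted p = 1.57e-07). In TPM, which also depends on the length of the transcripts that reads were assigned to, all these genes with Pirb came to 160, 155 and 149 in S9, S10 and S11, against 52.0, 44.4 and 43.4 in S12, S13 and S14. The strains were thus far apart for the matched PIR genes summed, and among these the activating genes together differed by more than Pirb.

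The ratio of the activating PIR genes to Pirb was 0.576, 0.508 and 0.491 in the BALB/c libraries, against 0.0846, 0.0854 and 0.0798 in the C57BL/6 libraries, in TPM. Pirb exceeded the sum of the matched activating genes in all 6 libraries. In C57BL/6 this sum was 3.58 TPM on average, of which Pira1 held 2.22 and Lilra6 0.783. Nearly all of that Pira1 and Lilra6 RNA lay on transcripts that RefSeq lists as non-coding. In BALB/c Lilra6 lay mostly on such a transcript as well, at 5.25 of 53.2 TPM. The log2 difference was -2.65, with a two-sided exact permutation p of 0.1, the smallest possible. It was -2.09 from estimated reads in place of TPM and -1.21 over curated transcripts alone, which leaves out the predicted transcripts that hold most Gm14548 and Gm15448 reads.

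**Figure D3:**
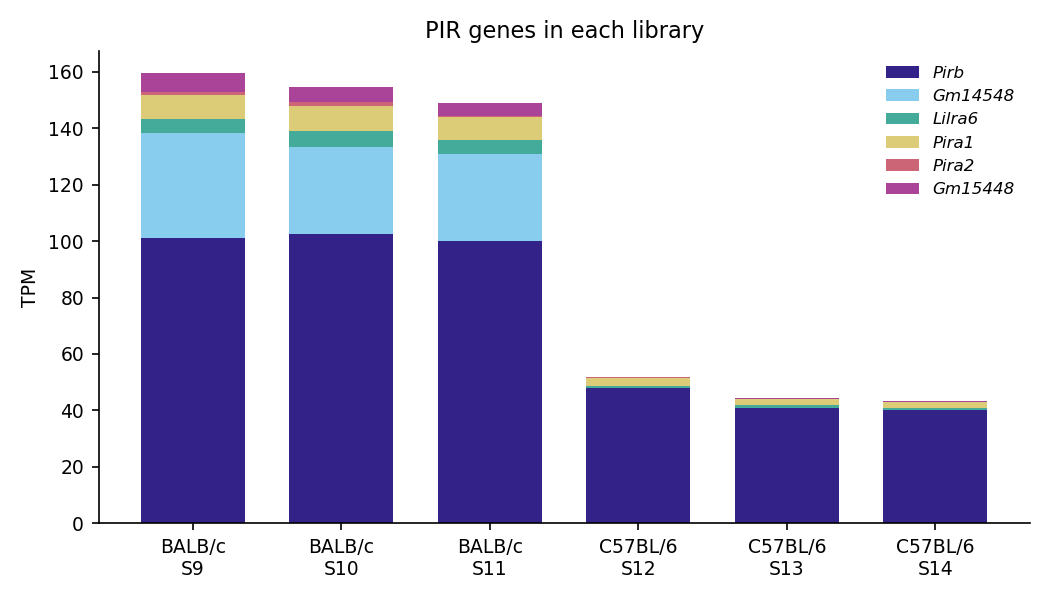
TPM of Pirb and of 5 activating PIR genes, stacked for each library. The whole bar falls from 149 to 160 TPM in BALB/c to 43.4 to 52.0 TPM in C57BL/6, and Gm14548, which holds 30.9 to 37.0 TPM in BALB/c, is at 0 to 0.056 TPM in C57BL/6.

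The start regions of the PIR genes are nearly the same sequence. Windows of 300 bases around the gene start, taken from RefSeq (GRCm38.p6), were identical between Pirb and Pira2 at 97.1%, between Pirb and Lilra6 at 95.9% and between Pira2 and Lilra6 at 96.3% of aligned bases. The window of Pira2 occurred at 2 places of chromosome 7 in GRCm39, at the starts of Pira2 and of Pira1. The windows of Pirb and Lilra6 are shown because both genes were lower in C57BL/6, with their place in GRCm39 found by exact match. Capitals mark GAGGAA on either strand (TTCCTC on the other), the core letters of sites bound by PU.1, a factor of myeloid cells.

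Pirb, chr7:3723332-3723631, minus strand: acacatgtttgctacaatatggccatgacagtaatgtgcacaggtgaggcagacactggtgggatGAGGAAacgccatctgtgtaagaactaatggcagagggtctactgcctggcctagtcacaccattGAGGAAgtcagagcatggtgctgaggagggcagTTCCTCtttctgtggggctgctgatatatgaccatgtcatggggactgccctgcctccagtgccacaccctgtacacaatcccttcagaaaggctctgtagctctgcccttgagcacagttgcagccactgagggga

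Lilra6, chr7:3918451-3918750, minus strand: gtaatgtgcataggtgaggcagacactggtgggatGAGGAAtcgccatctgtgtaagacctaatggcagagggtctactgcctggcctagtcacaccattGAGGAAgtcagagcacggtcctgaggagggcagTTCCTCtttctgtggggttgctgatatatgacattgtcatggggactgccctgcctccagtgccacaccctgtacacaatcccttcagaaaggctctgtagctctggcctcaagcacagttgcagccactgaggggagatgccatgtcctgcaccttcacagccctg

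Each of the windows of Pirb, Pira2 and Lilra6 held GAGGAA on either strand 3 times, and 28.3% of 32851 promoters of the same length held it at least once. AGATAA, a form of the letters bound by GATA factors, and TGANTCA, the letters bound by AP-1, were searched on both strands as well and had 0 matches in these windows, where 11.2% and 7.81% of promoters held them. The motifs were counted separately, and no binding was measured in this study.

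Lilrb4a, which encodes the inhibitory receptor gp49B1, was higher in C57BL/6 BMMCs. It lies on the plus strand at chr10:51367027-51372707 (ENSMUSG00000112148). It had 463, 452 and 461 CPM in S9, S10 and S11, against 733, 721 and 711 CPM in S12, S13 and S14, a log2 fold change of 0.65 (SE 0.03, adjusted p = 4.94e-07). All C57BL/6 libraries were above all BALB/c libraries in CPM and in TPM, where the means were 459 ± 10.9 and 642 ± 21.6 (SD, n = 3).

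Lilrb4b encodes gp49A, a near copy of gp49B1 without its cytoplasmic ITIMs, and was higher in C57BL/6 by less. It lies beside Lilrb4a at chr10:51356728-51362799 on the plus strand (ENSMUSG00000112023). It had 256, 235 and 256 CPM in the BALB/c libraries, against 344, 340 and 312 CPM in the C57BL/6 libraries, a log2 fold change of 0.41 (SE 0.05, adjusted p = 0.000169). Reads of both genes summed were higher in C57BL/6 by 0.57 (SE 0.04, adjusted p = 2.08e-06), which holds however reads are split between them.

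As estimated, the balance of this pair was tilted further to the inhibitory gene in C57BL/6. It depends on how reads were split between these near copies, and how far that moved the ratio was not tested. The ratio of Lilrb4b to Lilrb4a in TPM was 0.640, 0.602 and 0.648 in BALB/c, against 0.529, 0.537 and 0.493 in C57BL/6 (log2 difference -0.28, two-sided exact permutation p = 0.1). Among the transcripts of Lilrb4b, those of 1487 and 1482 bases were higher in C57BL/6, by log2 fold changes of 0.50 (adjusted p = 0.0127) and 0.56 (adjusted p = 0.00995), and the 1197-base transcript had -0.09 (adjusted p = 0.172). The 1197-base transcript took 30.2% ± 1.91 of Lilrb4b TPM in BALB/c and 22.0% ± 1.33 in C57BL/6 (SD, n = 3). Of the 6 Lilrb4a transcripts tested, 4 were higher in C57BL/6, with log2 fold changes from 0.62 to 0.72. Only the call of the 1502-base one held with each library left out in turn. That of the 1497-base one was lost in 5 of 6 such fits (it held without S10), and those of the 1401- and 1997-base ones in 4 of 6 (without S11, S12, S13 or S14, and without S10, S11, S12 or S13). The call of the 1487-base Lilrb4b transcript was lost without S13 (adjusted p = 0.0534).

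**Figure D4:**
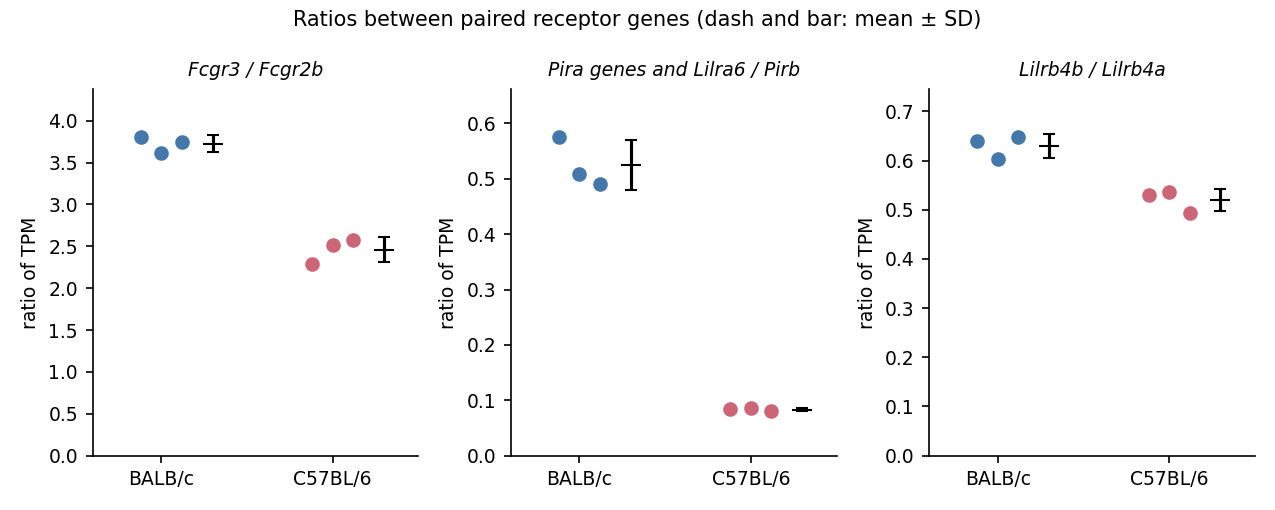
Ratio of TPM of Fcgr3 to Fcgr2b, of 5 activating PIR genes (the Pira genes, Lilra6, Gm14548 and Gm15448) to Pirb, and of Lilrb4b to Lilrb4a in each library, with mean and SD (n = 3) beside the points. All 3 ratios are lower in every C57BL/6 library than in every BALB/c library.

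Over the 10 genes, 24 transcripts were tested and 11 passed an adjusted p of 0.05, where 13.6% of all transcripts tested did. Past both thresholds were 3 of them, the 1341-base Fcgr3, the 2728-base Pirb and the 2281-base Lilra6 transcript, where 6.32% of all transcripts were. Without S12 or without S13 the 11 became 6.

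Milr1, which encodes the inhibitory receptor Allergin-1 of mast cells, was slightly lower in C57BL/6. It lies on the plus strand at chr11:106642052-106659779 (ENSMUSG00000040528). It had 95.4, 100.02 and 107 CPM in the BALB/c libraries, against 87.7, 86.5 and 87.9 CPM in the C57BL/6 libraries, a log2 fold change of -0.21 (SE 0.05, adjusted p = 0.00472). The strains did not overlap, and the BALB/c libraries spread more (101 ± 5.80 CPM) than the C57BL/6 libraries (87.4 ± 0.737 CPM, SD, n = 3). Its main transcript of 1559 bases took 41.0% ± 2.22 of Milr1 TPM in BALB/c and 42.1% ± 1.98 in C57BL/6, which overlap. The 6 Milr1 transcripts tested with edgeR had adjusted p-values of 0.0677 or more, and 2 of them had an unadjusted p under 0.05.

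The genes that signal with these receptors were taken as lists. The list of signalling subunits held Fcer1g, Tyrobp, Hcst and the IgE receptor chains Ms4a2 and Fcer1a, of which Fcer1a binds IgE and carries no activating motif. Of these 5 genes 3 were higher and 2 lower in C57BL/6, all below 2-fold, beside 27% and 25.9% of all genes. On plain library size 1 was higher and 2 lower, and with limma on log2(TPM + 1) no call was higher and 2 were lower. Fcer1g, the gamma chain that FcγRIII and PIR-A need, was higher (295 and 352 CPM on average, log2 fold change 0.26, adjusted p = 0.00103), though on plain library size it had 0.11 (adjusted p = 0.0509) and with limma on log2(TPM + 1) 0.07 (adjusted p = 0.148). Tyrobp, which encodes the adaptor DAP12, was lower (64.4 and 39.6 CPM, log2 fold change -0.70, adjusted p = 0.00124). Fcgr3 and the PIR-A genes were thus lower in C57BL/6 while their gamma chain had a log2 fold change above 0 under these 3 settings.

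Of the 7 phosphatases and adaptors that inhibitory motifs recruit, 4 were lower in C57BL/6, where 25.9% of all genes were, and 3 did not pass the test, with a median log2 fold change of -0.32 beside -0.01 for all genes. On plain library size and with limma on log2(TPM + 1) all 7 were lower. Dok2, an adaptor that dampens tyrosine kinase signals, was lower past both thresholds (8.52 and 3.77 CPM, log2 fold change -1.19, adjusted p = 7.98e-05). Ptpn6, the gene of SHP-1, was lower by -0.32 (adjusted p = 0.000463), and Inpp5d, the gene of SHIP-1, through which FcγRIIB acts, had -0.03 (SE 0.03, adjusted p = 0.448) at 673 and 658 CPM, but -0.18 (adjusted p = 0.00261) on plain library size.

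Of 13 tested kinases and adaptors of activating motifs, 7 were higher and 1 was lower, where 27% and 25.9% of all genes were, and 5 did not pass, with a median log2 fold change of 0.14. On plain library size 4 were higher and 5 lower, and with limma on log2(TPM + 1) 4 and 4, so the direction of this list depends on the scaling. Fyn, a kinase of the Src family, was higher past both thresholds (15.2 and 32.5 CPM, log2 fold change 1.08, adjusted p = 0.000953). Plcg1, the gene of phospholipase C gamma 1, was lower past both (176 and 80.1 CPM, log2 fold change -1.13, adjusted p = 6.62e-08). The call of Fyn past 2-fold was lost under 5 of the 19 alternatives, those on plain library size, on TPM at both pseudocounts, and without S10 or S13.

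Other receptors with inhibitory motifs did not move together. Of 9 tested, 4 were higher and 3 lower, beside 27% and 25.9% of all genes, and 2 did not pass. Past both thresholds was 1 of the 9, beside 13.3% of all genes, and this was Cd33, a sialic acid receptor (4.36 and 12.9 CPM, log2 fold change 1.56, adjusted p = 1.56e-06). The count past both was 3 without S10 and 2 without S9, S11, S12 or S13, and it was 2 as well with DESeq2, on plain library size, with no filter on low counts and with limma. Of 11 other Fc receptor genes, 3 were tested and 1 was higher, Trim21, the cytosolic antibody receptor (log2 fold change 0.72, adjusted p = 5.97e-05), while 6 were at 0 in every library. Of 7 ligand genes of these receptors, 5 were tested and 3 were higher in C57BL/6, beside 27% of all genes, all of them MHC class I genes, which PIR-B binds: H2-K1 (log2 fold change 0.95, adjusted p = 5.86e-08), B2m (0.56, adjusted p = 1.68e-06) and H2-D1 (0.13, adjusted p = 0.00596, with the opposite sign on plain library size and with limma). The strains carry different MHC haplotypes, and how far allele sequence moved reads of H2-K1 and H2-D1 was not tested. The integrin subunit genes Itgav and Itgb3, whose product binds gp49B1, did not pass (adjusted p = 0.300 and 0.0615). Itgb3 was rare (0.659 and 1.40 CPM), with a log2 fold change of 1.10 (SE 0.44). Ligand genes past both thresholds numbered 0, but 1 with no filter on low counts, without S9 and over curated transcripts.

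**Figure D5:**
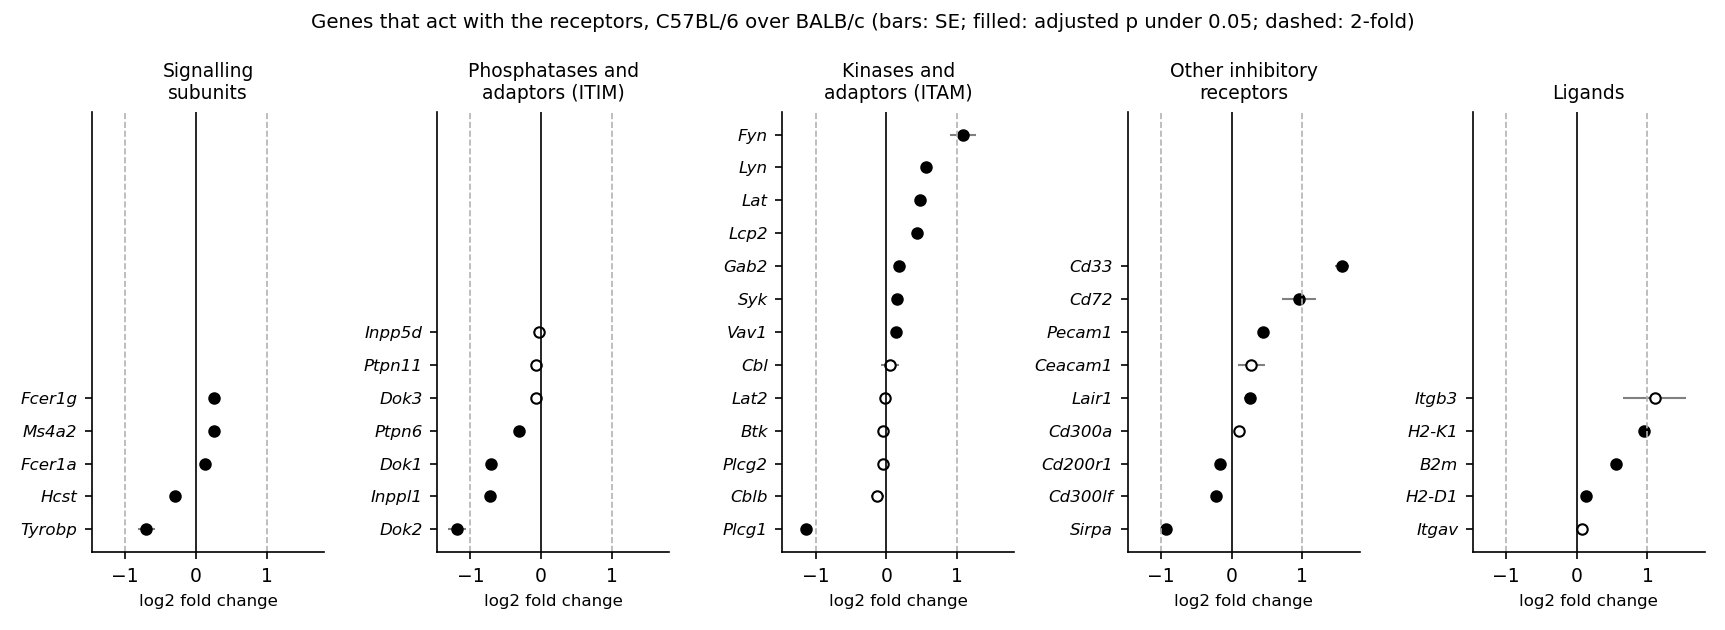
Log2 fold change (C57BL/6 over BALB/c) with SE for the tested genes of 5 lists (signalling subunits, phosphatases and adaptors of inhibitory motifs, kinases and adaptors of activating motifs, other inhibitory receptors, ligands), filled where the adjusted p was under 0.05. Filled points of the phosphatase list lie below 0 (4 of 7) and those of the kinase list mostly above it (7 of 13, but 4 of 13 on plain library size), while those of the subunits and of the other receptors lie on both sides.

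Some markers of other cells moved with strain. Of 10 mast cell markers all were tested, with Kit at 1766 and 1947 CPM and Fcer1a at 3308 and 3625 CPM on average in BALB/c and C57BL/6. Of these 10 genes 7 were higher and 1 lower in C57BL/6, beside 27% and 25.9% of all genes, but 4 higher and 2 lower on plain library size. Tpsb2, a tryptase (1032 and 5166 CPM, log2 fold change 2.32, adjusted p = 5.16e-07), and Hdc, which makes histamine (2.35 and 5.34 CPM, 1.19, adjusted p = 0.000735), were higher past both thresholds, Hdc not with limma, and Cma1, a chymase, was lower (9895 and 7346 CPM, -0.43, adjusted p = 0.00107). Of 10 macrophage or monocyte markers, Csf1r, C1qa, C1qb and C1qc were at 0 in every library, and Lyz2 had at most 2 reads. The 3 that were tested, Adgre1, Cd68 and Ccr2, were higher in C57BL/6 past both thresholds, where 7.73% of all genes were. With 10 counts in every library as the filter, 2 were. Adgre1, with 16, 0 and 16 reads in BALB/c, against 304, 268 and 365 in C57BL/6, passed the main filter through C57BL/6 alone. The summed level of the list was 6.63 to 10.2 CPM in BALB/c and 28.0 to 33.2 CPM in C57BL/6. The part of this in the values of the receptors was not tested.

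Basophil markers summed to 406 to 418 CPM in BALB/c and 512 to 523 CPM in C57BL/6, with 4 of 8 higher past both thresholds, where 7.73% of all genes were, though 1 of 8 was with 10 counts in every library as the filter. The 4 were the protease genes Mcpt8 (84.0 and 183 CPM, log2 fold change 1.12, adjusted p = 8.22e-08, below 2-fold on plain library size and with limma) and Prss34 (1, 8 and 2 reads in BALB/c, against 213, 192 and 224 in C57BL/6), the transcription factor gene Cebpa (5, 3 and 2 reads, against 330, 253 and 334) and the chemokine gene Ccl9 (5, 5 and 13 reads, against 338, 310 and 368). Il18r1 was lower (log2 fold change -0.54, adjusted p = 0.00415), and Cd200r3, which held most of the summed level in both strains (310.3 and 297 CPM), had -0.07 (adjusted p = 0.154). Dendritic cell markers summed to 8.10 to 8.67 CPM in BALB/c and 42.2 to 44 CPM in C57BL/6, with the defining Clec9a, Cd209a and Siglech at 0. The 2 tested, Itgax and Irf8, were higher past both thresholds, beside 7.73% of all genes. With 10 counts in every library 1 was, since Irf8 had 12, 2 and 3 reads in BALB/c. The part of these genes in the values of the receptors was not tested. No neutrophil, eosinophil or B cell marker passed the filter on low counts, with at most 4, 15 and 6 reads in any library, and Ms4a1, a defining B cell marker, was at 0 in every library. Of the T or NK cell markers 1 was tested, Ncr1, and it did not pass (adjusted p = 0.327).

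The genes nearest to the receptor genes were compared as well, and their counts are to be read against the 13.3% of all genes past both thresholds, 5.54% lower and 7.73% higher, and the 52.9% with an adjusted p under 0.05. Of the 10 tested genes nearest to the PIR cluster, 0 were past both thresholds in edgeR and 0 in DESeq2, 5 had an unadjusted and 4 an adjusted p under 0.05 in edgeR, and the median log2 fold change was 0.04. Rps9, 3.69 kb from the cluster, had 0.07 (adjusted p = 0.283), and the inhibitory receptor gene Lair1, 77.4 kb on the other side, was higher by 0.26 (adjusted p = 0.0264), or 0.11 (adjusted p = 0.263) on plain library size. Of the 10 around Lilrb4a and Lilrb4b, 0 were past both in edgeR and 0 in DESeq2, with 5 at an unadjusted and 3 at an adjusted p under 0.05 in edgeR. These 10 lay far off, from 629 to 7116 kb from the pair. Around Fcgr2b, Fcgr3 and Fcgr4, 2 of 10 were lower past both, Olfml2b (log2 fold change -1.11, adjusted p = 2.40e-05) and Cfap126 (-1.06, adjusted p = 0.00517). Fcer1g lies 164 kb from this cluster. Milr1 lies 0.598 kb from Pecam1, a further receptor with inhibitory motifs, which was higher in C57BL/6 (log2 fold change 0.44, adjusted p = 4.72e-06) while Milr1 was lower. Past both thresholds near Milr1 was 1 gene, 1810010H24Rik (1.09, adjusted p = 0.000419), and near Fcgr1 were Gm20627 (-1.53, adjusted p = 4.75e-06) and H2bc18 (-1.70, adjusted p = 0.0167).

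The pattern of Lilra6 over the 6 libraries was most like those of Tifab, Lrfn4 and Ocel1, with Pearson correlations of log2 CPM of 0.9997, 0.9996 and 0.9993. The libraries share their strain, which sets most of each correlation. Tifab was at 2.23, 2.55 and 2.18 CPM in S9, S10 and S11, against 0.313, 0.407 and 0.311 CPM in S12, S13 and S14, so S10 and S13 were the highest of their strain, as for Lilra6. Lrfn4 and Ocel1 were lower in C57BL/6 by log2 fold changes of -0.52 and -1.22.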

How the data were processed

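The 10 receptor genes, the gene lists and the tests were chosen with earlier results of these data known. The authors prepared strand-specific mRNA libraries, checked reads with FastQC 0.11.5 and assigned them to transcripts with Salmon 0.8.2 (build GRCm39, per the labels). They deposited for each transcript its length, an effective length, an estimated count (a number of reads that can be fractional) and a TPM value. The study's methods name Ensembl transcripts, while the deposited tables list RefSeq accessions. Of 129698 transcripts, 106440 (82.1%) were matched to gene symbols through a RefSeq gene table of GRCm38.p6, used for names alone, in which Lilrb4b is listed as Lilr4b. Unmatched transcripts held 2.69% to 3.12% of reads and were not used in the main setting. Sums of estimated counts by gene were rounded and tested with edgeR 4.0.16 (R 4.3.3, TMM, filter at a minimum count of 10), and by transcript in the same way. The SE of a log2 fold change is its size over the root of F. Ratios used an exact permutation test (scipy 1.17.1). The tests were checked on simulated data. Coordinates are from GENCODE's annotation of GRCm39, and protein sequences were not used here. Alternatives were DESeq2 1.42.0 and edgeR with and without a transcript length offset, DESeq2 size factors, upper-quartile factors, plain library size, other filters, limma 3.58.1 on log2(TPM + 1) or on log2(TPM + 0.1), other transcript sets, near copies summed, and each library left out. Named beyond the 10 genes are list members past both thresholds (at most 4 a list), members a result turns on, the 5 nearest tested neighbours on each side by count, and the 3 genes most like Lilra6. B2m, Ptpn6, Inpp5d and other list genes below 2-fold were named for their role. Some list genes are not reported here.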

Additional observations from a re-analysis of the deposited data

How the results depend on the processing

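Pirb, Lilra6, Fcgr3, Lilrb4a, Lilrb4b and Milr1 kept their direction and an adjusted p under 0.05 in all 19 alternatives run on single genes. Sizes moved, with Lilrb4b from 0.21 to 0.46 beside 0.41, and Milr1 from -0.39 to -0.12 beside -0.21. Fcgr2b fell to 0.11 on plain library size and to 0.06 with limma at both pseudocounts, no longer past the threshold. The sum with Fcgr3 had -0.19, but Fcgr3 held most of its reads, so it cannot show the direction of Fcgr2b alone. The median over all genes shifted by -0.14 on plain library size and with limma on log2(TPM + 1), and by -0.17 on log2(TPM + 0.1). Pira2 ranged from -2.15 to -1.33 with each library left out, lost its call without S10, S13 or S14, and lost it at -1.78 with unmatched transcripts kept. With near copies summed, 5 features passed the adjusted p, and 4 with Pirb added to the Pira sum, of which 1 was past both thresholds. Genes past both thresholds numbered 1653, but 1017 with at least 10 counts in every library and 799 with limma on log2(TPM + 1), and markers of other cells 9, but 4 with 10 counts in every library. Receptor transcripts past the adjusted p numbered 6 to 10 with a library left out, beside 11. The activating to inhibitory PIR ratio was -2.09 from estimated counts and -1.21 over curated transcripts, beside -2.65. Depth limits Fcgr1, Fcgr4 and Pira2. No paired analysis was possible because the labels do not say whether libraries of the strains were paired.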
